A study of Homo sapiens with 24 samples.

Results

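The zinc finger genes of chromosome 19 whose symbol is ZNF and a number were examined for H3K27ac, the acetylation of lysine 27 of histone H3 that marks active promoters and enhancers, before and after knockdown of the co-repressor ANCO1. A region was a member if it lay on chromosome 19 and its annotation named such a gene, either as overlapping it or as the flanking gene up to about 10 kb away. The rule used symbols and position alone, and no measured value. It found 814 regions of 171345 in the 6 deposited tables, and these named 187 genes. In 10A, 230 of the 50284 regions compared between shANCO1 and shCTRL were members, and in DCIS 182 of 44790 were.

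The study made 24 libraries in 8 groups of 3, from 2 human cell lines. MCF10A (10A) is an immortalized, non-tumorigenic mammary epithelial line, and MCFDCIS (DCIS) is a line of the same lineage that models ductal carcinoma in situ. In each line, cells carrying an shRNA against ANCO1, the product of ANKRD11 (shANCO1), were set against cells carrying a control shRNA against GFP (shCTRL), and each was sampled as an H3K27ac immunoprecipitate and as input chromatin. All cells had been infected with lentivirus and selected with puromycin, and they were grown with horse serum, EGF, hydrocortisone, insulin and cholera toxin. The ChIP data came from a single hairpin line, so an effect of ANCO1 loss and an effect of that hairpin or of its selection cannot be told apart. The tables give 1 line per region for a whole group, without a value per library. The spread between replicates and the depth are therefore unknown here, and each log2 fold change below is that of 1 representative window of the region, as the authors' csaw analysis chose it, with its false discovery rate (FDR) over all regions of the table. Nothing in the labels says that replicates came from separate cultures, so these FDRs may measure technical spread only. An immunoprecipitate of a histone mark does not measure the ANKRD11 transcript, and the knockdown itself was not checked here. Regions enriched over input were listed at the epithelial genes KRT5, TP63, CDH1 and EPCAM in all 4 groups, and none was listed at KRT14 or PGR in any group. VIM had 3 listed regions in 10A shANCO1 and none in any other group. ESR1 had listed regions in all 4 groups, although both lines are described as ER-negative.

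Zinc finger proteins of the C2H2 type bind DNA through tandem fingers, and many of those encoded on chromosome 19 join the fingers to a KRAB domain. The KRAB domain recruits TRIM28, which brings the histone methyltransferase SETDB1, HP1 proteins and the NuRD complex, and the target, often a transposable element, is silenced with H3K9me3. The genes arose by repeated duplication and stand in clusters. Their 3′ exons, which encode the fingers, often carry H3K9me3 themselves while their CpG-rich promoters stay active.

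Several short motifs were more frequent in RefSeq promoters of chromosome 19 ZNF genes than in all RefSeq promoters. Of 268 such promoters (216 genes, 250 bases before to 50 after the start), 40.7% held the ETS core CCGGAAG on either strand, against 10.3% of all 35116 RefSeq promoters. The SP/KLF letters GGGCGG stood in 64.9% against 45%, CCAAT (NFY) in 50% against 34.6%, AAGATGG (YY1) in 8.96% against 5.84%, GCATGCGC (NRF1) in 4.48% against 3.05%, and TGANTCA (AP-1) in 5.97% against 7.71%. The median number of CpG dinucleotides was 20 per promoter against 14. Other chromosome 19 promoters and ZNF promoters of other chromosomes were not counted. In ZNF promoters of genes without any region, ETS letters stood in 47.1%, SP/KLF in 74.3% and CCAAT in 55.7%. For genes with a region these were 38.4%, 61.6% and 48%, while YY1, NRF1 and AP-1 letters went the other way. No searched motif is contained in another, and a match is a string of letters, not a site shown to be bound. The sequences shown here belong to promoters that the results turn on: ZNF227 and ZNF83 had the lowest FDRs in 10A, and ZNF274, ZNF561 and ZNF845 rose in both lines. Bases 250 to 71 before the RefSeq start (GRCh38.p14) are printed 5′ to 3′ on the strand of the gene, with the searched motifs in capitals.
ZNF227 (chr19:44212282-44212461, plus strand): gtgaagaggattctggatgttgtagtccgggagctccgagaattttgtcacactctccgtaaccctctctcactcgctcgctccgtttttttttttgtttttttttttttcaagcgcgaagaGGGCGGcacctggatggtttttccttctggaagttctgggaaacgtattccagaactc
ZNF83, upstream start (chr19:52690567-52690746, minus strand): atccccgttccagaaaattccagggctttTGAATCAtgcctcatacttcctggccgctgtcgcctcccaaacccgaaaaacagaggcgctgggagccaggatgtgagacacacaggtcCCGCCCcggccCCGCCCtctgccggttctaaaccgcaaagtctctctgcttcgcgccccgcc
ZNF83, downstream start (chr19:52638426-52638605, minus strand): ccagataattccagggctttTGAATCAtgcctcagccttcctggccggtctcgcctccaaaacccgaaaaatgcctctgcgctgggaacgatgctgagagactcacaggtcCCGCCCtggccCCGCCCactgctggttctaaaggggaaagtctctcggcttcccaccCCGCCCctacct
ZNF845 (chr19:53333499-53333678, plus strand): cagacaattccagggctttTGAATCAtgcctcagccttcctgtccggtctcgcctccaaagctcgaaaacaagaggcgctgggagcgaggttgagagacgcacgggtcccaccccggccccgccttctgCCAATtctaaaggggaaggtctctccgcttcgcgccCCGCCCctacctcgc
ZNF274 (chr19:58182811-58182990, plus strand): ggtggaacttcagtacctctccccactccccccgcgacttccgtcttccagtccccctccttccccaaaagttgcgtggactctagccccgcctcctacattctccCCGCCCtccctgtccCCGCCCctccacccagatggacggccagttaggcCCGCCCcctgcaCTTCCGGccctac
ZNF561 (chr19:9621303-9621482, minus strand): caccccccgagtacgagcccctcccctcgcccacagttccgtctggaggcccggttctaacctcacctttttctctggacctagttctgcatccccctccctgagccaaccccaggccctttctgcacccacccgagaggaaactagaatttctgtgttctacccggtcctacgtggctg

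ZNF274 held 3 SP/KLF matches and the ETS letters within the bases shown, whereas ZNF561 held none of the 6 motifs there. Both ZNF83 starts and ZNF845 shared an unbroken run of 28 bases that includes the AP-1 letters:
Shared run: aattccagggctttTGAATCAtgcctca
The run was present in 6 of the 35116 RefSeq promoters. Of these, 4 belonged to ZNF83, ZNF845 and ZNF765, neighbours in the cluster at 51.6 to 53.6 Mb, and the other entries were a readthrough gene and an uncharacterised locus. Aligned end to end, the 4 promoters were 77.6% to 83.6% identical over 6 pairs. How the authors' alignment treated reads that fit several such copies is not stated in the sources used here, so values at these promoters may be shared between copies.

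The largest gain of all members lay downstream of the start of ZNF114 in DCIS. The 300 bases at the middle of that region (GRCh38, plus strand), which overlap no GENCODE exon, held CCAAT on both strands and the AP-1 letters:
ZNF114 (chr19:48273251-48273550, plus strand): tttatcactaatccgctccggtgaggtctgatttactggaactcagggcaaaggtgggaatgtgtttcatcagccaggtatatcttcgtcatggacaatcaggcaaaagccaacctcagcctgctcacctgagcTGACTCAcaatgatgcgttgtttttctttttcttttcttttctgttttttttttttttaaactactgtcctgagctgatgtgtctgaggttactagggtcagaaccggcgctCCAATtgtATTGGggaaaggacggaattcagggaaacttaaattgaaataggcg

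The deposited comparisons first separate genes with a region from genes without one. RefSeq lists 263 chromosome 19 genes that fit the symbol rule, 246 of them protein coding, and all 187 genes named by the regions were among them. Of the coding genes, 182 had a region in at least 1 table and 64 had none. With coding genes split into 16 loci wherever neighbours lay over 1 Mb apart, the locus from ZNF101 to ZNF254 at 19.7 to 24.1 Mb had a region for 12 of its 37 genes (32.4%), against 170 of 209 (81.3%) in all other loci. The locus held 25 of the 64 unlisted genes, and the loci at 36.2 to 37.8 Mb and at 51.6 to 53.6 Mb held 10 each. The 25 unlisted genes there included ZNF93 and ZNF43, the former known as a repressor of L1 retrotransposons. ZNF91 in the same locus, which represses SVA elements, was listed. The cluster from ZNF575 to ZNF296 at 43.5 to 45.1 Mb was the opposite case, with a region for 23 of 24 genes. Over input, fewer of its genes had one: 4 in 10A shCTRL, 16 in 10A shANCO1, 13 in DCIS shCTRL and 14 in DCIS shANCO1. Other unlisted genes were ZNF382, ZNF671, ZNF677 and ZNF536, of which ZNF382, ZNF671 and ZNF677 are known for promoter methylation in tumors and ZNF536 is a neuronal gene. A gene without a listed region did not pass the authors' filter, which does not show that its promoter lacked the mark. Nor does a region by itself show enrichment. Of the genes with a region compared between shANCO1 and shCTRL, 44 were listed over input in no group. How many reads could be placed uniquely in each locus was not tested.

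**Figure D1:**
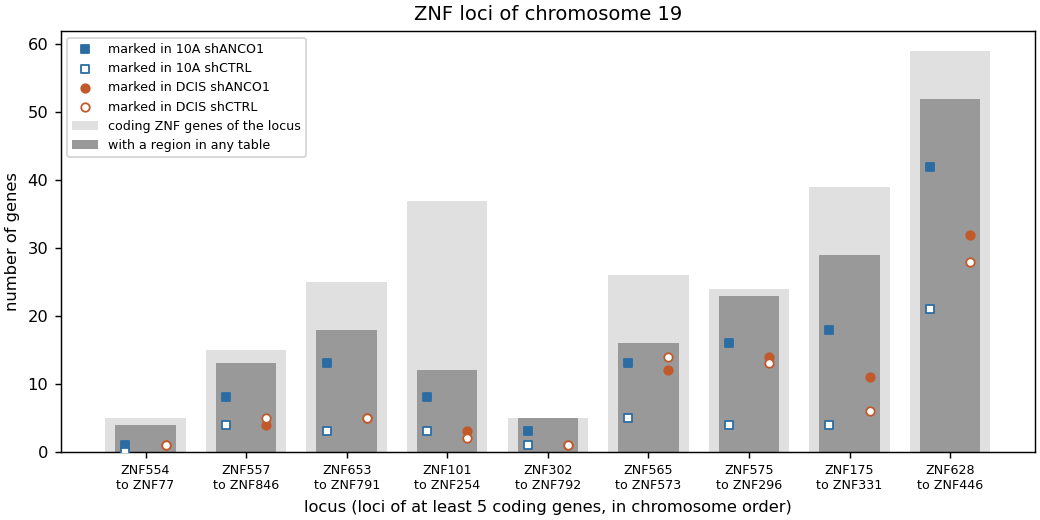
Loci of at least 5 coding ZNF genes along chromosome 19 (x axis, named by first and last gene) and number of genes (y axis). Light bars give all coding genes, dark bars those with a region in any table, squares (10A) and circles (DCIS) the genes marked over input in shANCO1 (filled) and shCTRL (open). The locus from ZNF101 to ZNF254 has a region for 12 of 37 genes.

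The question of which ZNF genes carried the mark in each state was addressed by the comparisons with input. In 10A shCTRL, 51 genes had a listed region (55 regions), and in 10A shANCO1, 135 genes had one (153 regions). DCIS had 83 genes (93 regions) in shCTRL and 95 genes (101 regions) in shANCO1. At promoters alone, 45 genes were listed in 10A shCTRL, 121 in 10A shANCO1, 71 in DCIS shCTRL and 82 in DCIS shANCO1. These tables hold enriched regions only, so the share called up was 100% of the 15490, 28607 and 16692 regions listed for 10A shCTRL, 10A shANCO1 and DCIS shANCO1, and 100% after rounding for DCIS shCTRL (15480 of 15482). Nothing about the members can be read from those shares. The number of listed ZNF regions was 2.78 times as high in 10A shANCO1 as in shCTRL. Over all regions the ratio was 1.85, over other regions of chromosome 19 it was 2.32, and over ZNF regions of other chromosomes 2.32. In DCIS the ratio was 1.09 for the members and 1.08 for all regions. Each ratio compares 2 lists made with separate thresholds and has no replicate check.

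**Figure D2:**
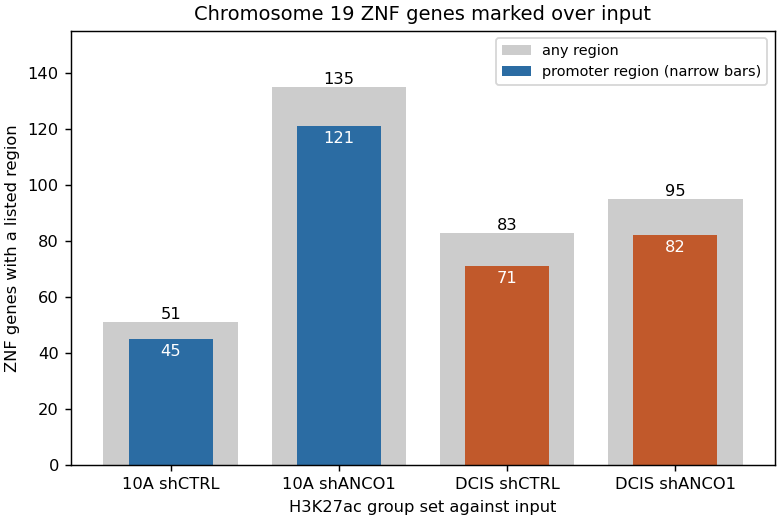
Number of chromosome 19 ZNF genes (y axis) with a region listed as enriched over input in each H3K27ac group (x axis). Wide grey bars count any region and narrow colored bars promoter regions. The count in 10A is 51 in shCTRL and 135 in shANCO1, and in DCIS 83 and 95.

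Every one of the 51 genes listed in 10A shCTRL was also listed in 10A shANCO1, and 84 genes were listed in shANCO1 alone. Of these 84, 52 had at least 1 region that rose in the direct comparison, as had 35 of the 51 listed in both states and 102 of all 183 genes compared. The genes gained included ZNF274, ZNF83, ZNF845, ZNF224, which encodes a KRAB repressor, and ZNF350, also called ZBRK1, a repressor that binds BRCA1. In DCIS, 76 genes were listed in both states, 19 in shANCO1 alone and 7 in shCTRL alone. ZNF114, ZNF274 and ZNF473 were among the 19, and ZNF155, ZNF230, ZNF414, ZNF527, ZNF547, ZNF607 and ZNF875 were the 7. None of those 7 had a region that fell in the direct comparison. Of the 42 genes listed in DCIS shCTRL but not in 10A shCTRL, 36 were listed in 10A shANCO1. The 10A shANCO1 list is much longer over the whole genome, with 28607 regions against 15490 in 10A shCTRL. No share over all genes was counted beside these overlaps, so they do not set ZNF genes apart from other genes. As the immunoprecipitates of each group enter both kinds of comparison, the 2 are not independent.

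Genes listed in all 4 groups numbered 40, and for 36 of them the promoter itself was listed each time. They included ZNF146, whose protein consists almost wholly of fingers, ZNF227, ZNF317, ZNF561, ZNF787 and ZNF865. The promoter of ZNF146 had a log2 enrichment over input of 3.39 in 10A shCTRL, 4.74 in 10A shANCO1, 3.91 in DCIS shCTRL and 3.86 in DCIS shANCO1. YY1 letters stood in 8 of 44 promoters (18.2%) of the genes listed in all 4 groups. They stood in 0 of 46 promoters of genes that were compared but listed over input in no group. In that order of sets, ETS letters stood in 34.1% and 30.4%, SP/KLF in 70.5% and 56.5%, and CCAAT in 47.7% and 47.8%. AP-1 letters stood in 11.4% and 4.35%, and NRF1 letters in 4.55% and 8.7%. These values are a description and were not tested. Counted in the translated GENCODE canonical transcripts, the proteins had a median of 11 fingers for genes listed in all 4 groups, 13 for coding genes in no table and 12 for all 246 coding genes.

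Enrichment over input at the members was lower than over all regions. The median log2 enrichment was 2.54 against 3.32 in 10A shCTRL, 2.86 against 3.40 in 10A shANCO1, 3.32 against 4.09 in DCIS shCTRL and 3.94 against 4.47 in DCIS shANCO1. Medians for other regions of chromosome 19, in that order of groups, were close to those of the members (2.53, 3.01, 3.49, 4.03). The highest single member value was 7.13, at the promoter of ZNF227 in DCIS shCTRL. The same promoter had 3.70 in DCIS shANCO1, and its direct comparison between those states gave a log2 fold change of 0.73 with an FDR of 0.647. In 10A the lowest-FDR ZNF227 promoter regions, at an upstream start, had 2.56 in shCTRL and 3.05 in shANCO1.

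Listed regions lay beside the transcription start more often than on it. Of the 53 regions listed in 10A shCTRL for genes with a GENCODE canonical start, 4 held the start, 38 lay within 1 kb without holding it and 11 lay farther away. In 10A shANCO1, 53 of 146 held the start and 69 lay within 1 kb of it. In DCIS, 23 of 85 in shCTRL and 33 of 95 in shANCO1 held it. The regions of the direct comparison were wider, with a median of 1200 bp against 400 to 600 bp over input, and 139 of 205 in 10A and 108 of 162 in DCIS held the start. Positions were not counted for regions of other genes, so this placement is not shown to be particular to ZNF genes.

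On ANCO1 knockdown in 10A, H3K27ac rose at many ZNF genes, and no member region was called down. Of 230 member regions, 97 rose (42.2%), 0 fell and 133 did not pass an FDR of 0.05. The share over all 50284 regions was 43.6% up and 0.225% down, so the members' share was near the background. At an unadjusted csaw p under 0.05, 0 members went down. The log2 fold change was above 0 in 225 of 230 members, with a median of 0.70 (quartiles 0.49 and 0.91) against 0.76 over all regions. Relative to that general shift, the median of the members was -0.066. By gene, 102 of 183 had a region that rose, and 76 of 169 had a promoter region that rose. Genes with several regions had more chances to be counted here. No share over all genes was counted beside these, so they do not set ZNF genes apart.

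Split by annotation, 82 of 191 promoter regions rose (42.9%), against 50.8% up and 0.128% down among all 23501 promoter-annotated regions. Other promoter regions of chromosome 19 rose in 43.8% of 1132 cases, and ZNF promoter regions of other chromosomes in 54.3% of 337. Intronic members rose in 6 of 9 cases (34.6% over all intronic regions), exonic members in 2 of 5 (46.4%) and flanking members in 7 of 25 (40.9%). Among regions of up to 5 windows, 13.2% of 53 members rose, and among those of over 15 windows, 57.8% of 64 rose. The same step was seen over all regions, from 21.8% to 71%. Whether a region was called therefore moved with its width, and the part of width in the differences between sets was not tested.

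**Figure D3:**
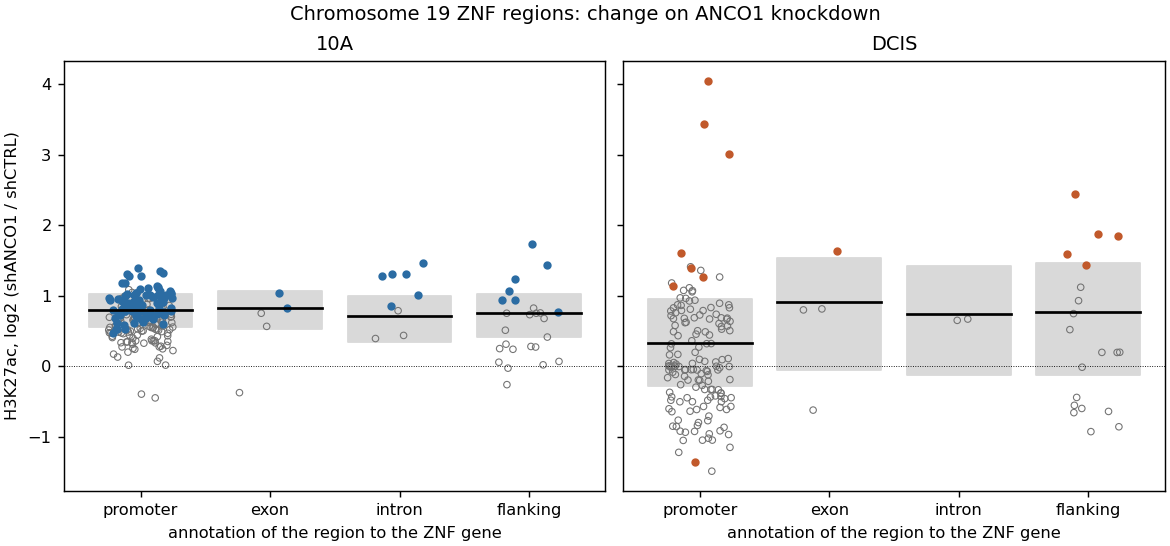
Log2 ratio of H3K27ac in shANCO1 over shCTRL (y axis) for each member region in 10A (left) and DCIS (right), by annotation to the ZNF gene (x axis). Filled points have an FDR under 0.05, open points do not, the black line is the median of all regions of that class and the grey band their quartiles. In 10A 225 of 230 members lie above 0, while in DCIS 96 of 182 do.

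The promoters with the lowest FDRs in 10A rose by 0.72 to 1.04. ZNF227 (chr19:44212001-44213600, promoter and first exon) had a log2 fold change of 1.04 with an FDR of 5.27e-05, and 7 of its 15 windows rose. Its upstream promoter region rose by 0.79 (FDR 0.00186). ZNF83, which has 14 fingers, rose at both starts printed above, by 1.01 at chr19:52689001-52691500 (FDR 5.53e-05, 18 of 24 windows) and by 1.05 at chr19:52637401-52638500 (FDR 0.00137, 10 of 10 windows). ZNF226, adjacent to ZNF227, rose by 0.97 (FDR 0.000121). ZNF607 rose by 0.93 (FDR 0.000127), ZNF780B by 1.03 (FDR 0.000422) and ZNF428, whose short protein has 1 finger, by 0.89 (FDR 0.000547). The region that named ZNF296 was annotated also to the promoters of GEMIN7 and MARK4 and rose by 0.72 (FDR 0.000226), so it cannot be given to ZNF296 alone.

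ZNF274 rose by 1.03 in 10A (chr19:58182501-58184200, FDR 0.000333, 9 of 16 windows). Its protein, with 5 fingers, binds the 3′ ends of other ZNF genes and recruits SETDB1 there. No ZNF274 region was listed over input in 10A shCTRL, and its promoter had a log2 enrichment of 3.26 in 10A shANCO1. The same was seen in DCIS, with none in shCTRL and 3.90 in shANCO1. A region without a listing in shCTRL was not necessarily unmarked.

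The largest gains in 10A lay outside annotated ZNF promoters in 3 of 4 regions. A region in an intron of ETHE1 that flanks ZNF575 rose by 1.73 (FDR 0.000183, 3 of 3 windows). An intronic region of ZNF787 (chr19:56090801-56092700) rose by 1.47 (FDR 0.000537), while the ZNF787 promoter had 0.35 (FDR 0.294). A region over the NAPA promoter flanking ZNF541, a germ-cell gene, rose by 1.44 (FDR 0.00754). The 1 promoter region lay over an exon of ZNF324 and the promoter of ZNF446, a SCAN-domain gene, and rose by 1.35 (FDR 0.00335).

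Genes with known roles had values in the same range in 10A. The promoter of ZNF91 rose by 0.53 (FDR 0.0342), that of ZNF224 by 0.99 (FDR 0.0209) and that of ZNF473, a factor in the 3′ processing of histone mRNA, by 0.77 (FDR 0.0178). The ZNF473 region also held the start of VRK3. ZNF146 had 0.64 (FDR 0.0719). At ZNF350 the region over the start had 0.34 (FDR 0.373), a promoter-annotated region 6740 bp from it had 0.76 (FDR 0.177), and an intronic region rose by 1.01 (FDR 0.0112). At the imprinted gene ZNF331 the region over the canonical start had 0.07 (FDR 0.924), a second promoter-annotated region 15756 bp away had 0.88 (FDR 0.0749), and an intronic region between them rose by 1.31 (FDR 0.0073). ZNF154 and ZNF132, both known for promoter methylation in tumors, had no region at their own promoters. A region flanking ZNF154, over ZNF776 and ZNF551, rose by 0.83 (FDR 0.0487), and one flanking ZNF132 had -0.02 (FDR 0.967).

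In DCIS, few ZNF regions were called. Of 182 member regions, 13 rose (7.14%) and 1 fell (0.549%), against 23.6% up and 4.86% down over all 44790 regions. The median log2 fold change was 0.02 (quartiles -0.44 and 0.69) against 0.52 over all regions, which put the members at -0.50 relative to that shift. At promoters, 7 of 156 regions rose (4.49%) and 1 fell (0.641%), against 16.3% and 3.27% of all 23037 promoter-annotated regions. Other promoter regions of chromosome 19 rose in 14.7% of 1188 cases and ZNF promoter regions of other chromosomes in 8.76% of 331. The share was below the background in each width class, from 10.6% of 47 members against 22.8% at up to 5 windows to 7.69% of 39 against 25.9% at over 15. No test of these differences was made, as regions are not replicates of a condition. Values in DCIS spread more widely than in 10A, with an interquartile range of 1.13 among members against 0.42, and 22 members had a log2 fold change of at least 1, of which 13 passed the FDR. In 10A, 38 members had a log2 fold change of at least 1, and 36 of them were called up. Over all regions the interquartile range was 1.46 in DCIS against 0.56 in 10A. The part of this spread in the number of calls was not tested.

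The 2 largest gains in DCIS lay at ZNF114, a KRAB gene with 3 fingers, which had 3 of the 13 regions that rose. The region over its start (chr19:48269301-48271300) rose by 3.44 (FDR 2.61e-12), with 19 of 19 windows up. A region in an intron near the start (chr19:48272801-48274000), the one printed above, rose by 4.05 (FDR 4.64e-09, 9 of 9 windows), the largest value of any member. A region 3393 bp beyond the gene rose by 1.88 (FDR 0.0032). Over input, ZNF114 was listed in DCIS shANCO1 alone, with 1 region, over its start, that had a log2 enrichment of 4.63. The intronic region with the largest gain was not listed over input in any group. In 10A no region of any table named ZNF114. ZNF114 and its antisense gene ZNF114-AS1 share the start region, and the mark does not tell them apart.

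The other DCIS gains were smaller or narrow. ZNF649, known as a repressor of AP-1 reporter activity, rose by 3.01 in a region of 2 windows beside its start (FDR 4.20e-06), had no region listed over input in any group and had 0.29 in 10A (FDR 0.638). An intergenic region, 6780 bp from ZNF561 by its annotation, rose by 2.45 in DCIS (FDR 1.67e-05) and by 1.24 at the same position in 10A (FDR 0.00488). A region flanking ZNF541 rose by 1.85 (FDR 0.00207), and one at the last exon of ZNF428 inside ZNF576 by 1.63 (FDR 0.0233). The latter was annotated also as promoter of SRRM5, so it cannot be given to the ZNF genes alone. The region in ETHE1 beside ZNF575, which led the gains in 10A, rose by 1.44 in DCIS (FDR 0.0167). ZNF575 itself was named by 12 regions over both lines, more than any other gene, and the region over its start rose in 10A by 0.92 (FDR 0.00129) and had -0.33 in DCIS (FDR 0.831). ZNF581, ZNF586, ZNF284 and ZNF552 were also among the genes with the most regions. In that order, their lowest-FDR regions in 10A had 0.83 (FDR 0.00431), 1.01 (FDR 0.00778), 0.99 (FDR 0.0209) and 0.65 (FDR 0.0867). In DCIS they had -0.93 (FDR 0.154), 0.80 (FDR 0.347), 0.87 (FDR 0.381) and 0.80 (FDR 0.347). The 10A region of ZNF284 was the ZNF224 promoter, and ZNF586 and ZNF552 shared the DCIS region.

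A single member fell. The region at chr19:19662701-19664600, over the promoter and first exon of ATP13A1 and annotated also as promoter of ZNF101, had a log2 fold change of -1.36 in DCIS (FDR 0.0175, 2 of 17 windows down). It ended 4239 bp before the GENCODE canonical start of ZNF101. The region at that start had -1.49 with an FDR of 0.202. Listed regions within the one that fell had a log2 enrichment over input of 3.68 in DCIS shCTRL and 3.52 in DCIS shANCO1, and regions just downstream of the ZNF101 start had 3.43 and 4.50. In 10A the upstream region had 0.96 (FDR 0.0626) and the region at the start 0.43 (FDR 0.24).

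**Figure D4:**
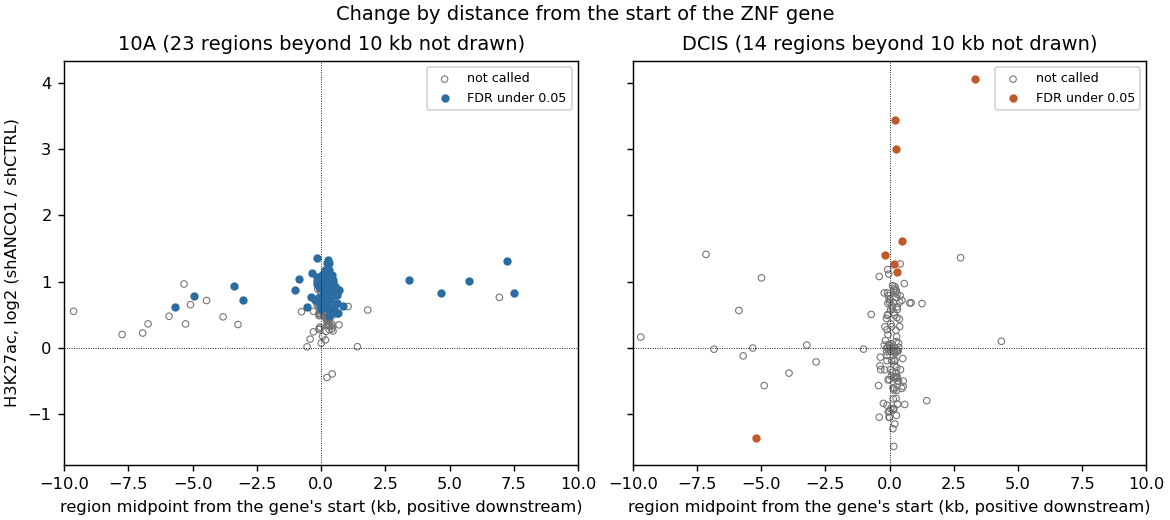
Log2 ratio of H3K27ac in shANCO1 over shCTRL (y axis) against the distance of the region's midpoint from the GENCODE canonical start of the ZNF gene (x axis, kb), 10A left and DCIS right, filled where the FDR is under 0.05. Most regions lie at the start, and the point that fell in DCIS lies upstream of ZNF101.

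A promoter region was measured in both lines for 135 genes. With the region of lowest FDR taken in each line, the regions of the lines overlapped for 113 genes and lay at different places for 22. The 113 genes gave 106 distinct pairs of regions, since neighbouring genes shared a region in 7 cases. Over these 106 pairs, 105 had a value above 0 in 10A (median 0.74) and 53 in DCIS (median 0.00074). The value was higher in 10A in 87 pairs. In 10A 53 rose, of which 4 rose in DCIS too and 49 did not pass the FDR there. As a description across regions, which share their libraries within a line, Pearson r was -0.01 and Spearman rho 0.01 (n = 106 pairs). The DCIS median was 0.0025 for the 53 pairs that rose in 10A and -0.001 for the 53 that did not. No test of a difference between the lines could be made, since no values per library were held. Regions outside the members were not paired in this way, so these figures are not shown to be particular to ZNF promoters.

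The 4 promoters that rose in both lines were those of ZNF274, ZNF444, ZNF561 and ZNF845. ZNF274 rose by 1.03 in 10A and 1.27 in DCIS (FDR 0.0319), and ZNF444, a SCAN-domain protein with 4 fingers, by 1.13 (FDR 0.0268) and 1.61 (FDR 0.0245). ZNF561 rose by 0.62 (FDR 0.0349) and 1.40 (FDR 0.0197), at a start shared with ZNF561-AS1. ZNF845, which has 26 fingers, rose by 0.74 (FDR 0.0335) and 1.14 (FDR 0.0417). Few windows of these regions rose in DCIS: 2 of 13 at ZNF274, 5 of 28 at ZNF444, 3 of 17 at ZNF561 and 1 of 6 at ZNF845. In 10A, in the same order, 9 of 16, 3 of 15, 6 of 29 and 4 of 7 rose. None of the 4 DCIS FDRs was under 0.01. ZNF83 and ZNF765, whose promoters hold the run shared with ZNF845, rose in 10A by 1.01 and 1.02 (FDR 0.0438 for ZNF765) and had -0.71 (FDR 0.63) and 0.07 (FDR 0.971) in DCIS. ZNF226 and ZNF227 had 0.79 (FDR 0.552) and 0.73 (FDR 0.647) in DCIS. ZNF428 and ZNF607 had -1.05 (FDR 0.168) and -0.85 (FDR 0.422). ZNF224, ZNF473 and ZNF146 had -0.43 (FDR 0.877), 1.08 (FDR 0.77) and 0.04 (FDR 0.988), and ZNF331 had -0.05 (FDR 0.984) over its start and 0.96 (FDR 0.289) at the distant promoter-annotated region.

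**Figure D5:**
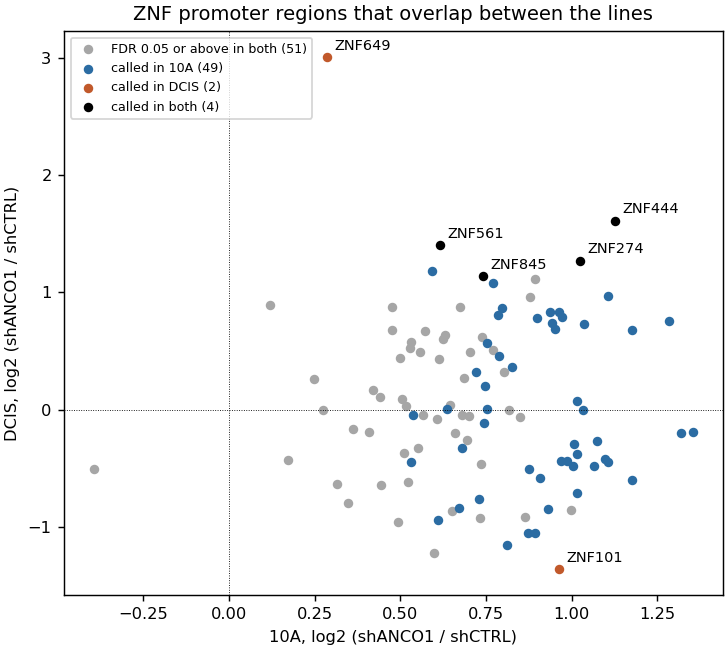
Log2 ratio of shANCO1 over shCTRL at 106 pairs of ZNF promoter regions that overlap between the lines, 10A on the x axis and DCIS on the y axis, colored by which line had an FDR under 0.05. The x values lie above 0 for 105 pairs, the y values for 53, and the 4 black points rose in both lines.

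By position, gains in 10A were spread over the chromosome. With member regions split into 17 loci at gaps of over 1 Mb, the largest, from ZNF628 to ZNF324 and ZNF446 at the chromosome end, had 31 of 71 regions up, the locus from ZNF175 to ZNF331 16 of 40 and the locus from ZNF575 to ZNF296 12 of 30. All 5 regions of ZNF574 and ZNF526 and all 3 of ZNF546, ZNF780B and ZNF780A rose, with medians of 0.94 and 1.03. The locus of ZNF507 had 2 of 2 up and that of ZNF473 1 of 1. The locus from ZNF554 to ZNF77 had 1 of 6 up and the lowest median, 0.42. The locus from ZNF101 to ZNF506 had 0 of 3 up and that of ZNF333 0 of 1. Over all regions 43.6% rose in 10A, and differences between loci, many of few regions, were not tested. In DCIS, the locus of ZNF541 and ZNF114 had 4 of its 6 regions up, and the chromosome-end locus 3 of 61, against 23.6% over all regions.

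Regions that rose in 10A were mostly listed over input in the knockdown, but the same shANCO1 immunoprecipitates enter both comparisons. A region that rose is thus selected for high shANCO1 signal, so its contrast with regions not called is partly built in. Of the 97, 76 overlapped a region listed in 10A shANCO1 (78.4%) and 24 one listed in 10A shCTRL (24.7%), and 21 overlapped neither. Of the 133 not called, 61 overlapped a region of 10A shANCO1 (45.9%) and 22 one of 10A shCTRL (16.5%). In DCIS, 9 of the 13 regions that rose and 74 of the 168 not called overlapped no listed region of either state. The 10A and DCIS regions coincided in 162 of 230 and 168 of 182 cases, by an overlap of at least 1 bp. No share over all regions was counted for this overlap or for those with listed regions. Regions that named ZNF genes alone rose in 53 of 118 cases in 10A (44.9%) and those that named another gene as well in 44 of 112 (39.3%). In DCIS the counts were 5 of 92 (5.43%) and 8 of 90 (8.89%).

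The partners through which KRAB proteins silence their targets were measured at 16 of 17 genes. In 10A 20 of their 37 regions rose and 0 fell by csaw's FDR (0 down at an unadjusted p under 0.05). The median log2 fold change of the 37 regions was 0.90. By gene, 13 of 16 had a promoter region that rose, and a gene with several regions had more chances to be counted. The region over the start of TRIM28, the KRAB corepressor, rose by 1.07 (FDR 0.00204), and SETDB1 had 0.54 (FDR 0.411). In DCIS 2 of 30 regions rose and 0 fell (0 down at an unadjusted p under 0.05), with a median of 0.0042, and SETDB1 had -0.95 (FDR 0.231). The TRIM28 region was split in DCIS into 1 with 0.02 (FDR 0.997) and 1 with -1.09 (FDR 0.369). The backgrounds given above for each line apply to the counts of regions, with 43.6% up over all regions and 50.8% over promoter-annotated ones in 10A. No share over all genes was counted to set beside the count by gene. Of 15 finger genes of chromosome 19 listed under other names, such as ZIK1 and ZSCAN22, 7 were measured in 10A, with 5 of 9 regions up, and 6 in DCIS, with 1 of 9 up. ZNF112, counted there, is also a member.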

How the data were processed

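H3K27ac ChIP-seq and input libraries of 10A and DCIS cells were sequenced as read pairs. The authors' methods name BWA and Rsubread for alignment to GRCh38, samtools for removing duplicates, csaw for testing windows and ChIPpeakAnno for annotation; the labels also list HOMER. Window size, normalization, filtering and the matching of inputs to groups are not given in the sources used here, and another normalization could shift every fold change. The 6 deposited tables hold, per region, the log2 fold change of a representative window, a p-value and its FDR, and counts of windows with a change. These are results of the authors' own fit, used here because the tables hold 1 line per region and nothing per library. No model was fitted, and depth and replicate error are unknown.

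With Python 3.11.15, pandas 2.3.3, numpy 2.4.6 and scipy 1.17.1, member regions were selected by symbol, and an FDR under 0.05 with the authors' direction was a call. A gene's value is its promoter region of lowest FDR. The parser was tested on simulated lines. Genes named were, per line, the 8 lowest FDRs at promoters up, the 5 largest changes of at least 3 windows and the genes that fell, then those up in both lines, the 5 with the most regions, 14 genes of known role, TRIM28 and SETDB1. Genes outside that rule were named after their values were seen. Loci were split at gaps of over 1 Mb. Members and lists were chosen with earlier results of these data known. Sequences are from RefSeq and hg38, fingers from GENCODE transcripts. Alternatives changed the FDR, fold, width and annotation limits. The values of 1 member region that rose in DCIS are not reported here.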

Additional observations from a re-analysis of the deposited data

How the results depend on the processing

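No paired analysis was possible because the deposited tables hold 1 line per region for whole groups, and for the same reason no library could be left out and no other normalization, count filter or replicate check could be run. Of 61 recomputed values, 46 kept their direction and stayed within 1.5 times the count or within the interval of the median, 13 moved and 2 reversed. At an FDR under 0.01 the members that rose numbered 53 in 10A and 6 in DCIS, and 0 fell in DCIS. Where the log2 change also had to be 1 or more in size, 36 rose in 10A. Among regions that name ZNF genes alone, 53 rose in 10A and 5 in DCIS, and 0 fell in DCIS. In DCIS 8 rose by the overlap column only and 7 among promoter-annotated regions. With at least 5 windows required, the genes listed over input numbered 15 and 84 in 10A shCTRL and shANCO1 and 34 and 43 in DCIS. Centred on the median of all regions, the members' median log2 fold change became -0.066 in 10A and -0.50 in DCIS. That reversal follows from the subtraction itself, so a direction for the members as a group holds only on the authors' scale. With the regions of the lines required to overlap, a choice made after the data were seen, 4 promoters again rose in both lines.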
